A study of Mus musculus with 8 samples.

Results

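Transcripts of 10 genes of the transforming growth factor-beta (TGF-beta) pathway were followed in mature oligodendrocytes, the myelin-forming cells of the brain, from mice with and without microglia. The genes were taken from a fixed list by gene symbol, and the list was chosen with earlier results of these data known. All 10 were found among the 18833 genes of the deposited expression matrix. They are the ligand gene *Tgfb1*, the receptor genes *Tgfbr1* and *Tgfbr2*, the signal carriers *Smad2*, *Smad3* and *Smad4*, the inhibitor *Smad7*, and the corepressors *Ski*, *Skil* and *Tgif1*.

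The matrix held 12581 oligodendrocytes from 8 single-cell RNA sequencing libraries of 4 female mice. WT mice 1 and 4 carried an intact *Csf1r* locus, and KO mice 3 and 6 were homozygous for FireΔ/Δ, a germline deletion of the *Csf1r* enhancer Fire that leaves the brain without microglia. From each mouse 1 library was made of both hippocampi and 1, labelled cortex, of the rest of the left hemisphere, with olfactory bulbs and cerebellum removed. The labels give an age of 1 month and 18 days for mice 1 and 3, and of 1 month and 16 days for the other pair. All tissue was dissociated with actinomycin D, which limits new transcription during the procedure. Each of the 4 batches on file held the WT and the KO library of 1 tissue and 1 age. The cortex libraries of mice 4 and 6 carry the batch number 6, and the study's methods describe its batch 6 as poorer in quality than the rest. The authors had divided the cells into 4 clusters, Oligo1 to Oligo4, and Oligo1 held 1552 cells of the KO mice and 6 of the WT mice.

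TGF-beta binds a type II receptor, encoded by *Tgfbr2*, which activates the type I receptor encoded by *Tgfbr1*. The type I receptor phosphorylates the receptor-regulated SMAD proteins, which join the common partner SMAD4 and enter the nucleus, where the corepressors SKI, SNON (the product of *Skil*) and TGIF1 restrain transcription. *Smad7* is itself a target of the pathway and encodes an inhibitor that acts at the type I receptor. In the brain microglia are a major source of TGF-beta1 and also depend on it.

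The libraries held 904 to 2784 cells and between 12015518 and 27848236 molecules each, counted as unique molecular identifiers (UMIs). *Csf1r*, whose enhancer is deleted, gave 72 to 162 UMIs in the WT libraries and 0 to 3 in the KO libraries, so the genotype labels and the counts went together. Levels are given per 1000000 UMIs of the same cells, written CPM (counts scaled to that total). The oligodendrocyte marker *Mbp* was at 4830 to 5274 CPM in WT and 4623 to 5684 in KO libraries, and *Mog* was at 1843 to 1956 and 1827 to 2002. The summed level of 11 microglial genes was 66.9 to 160 CPM in WT and 16.5 to 21.9 in KO libraries, where *Tmem119* was at 0. At least 1 such UMI was present in 53.5% to 77.0% of WT cells and in 15.2% to 25.6% of KO cells. Of 12560 distinct cell barcodes 21 occurred in more than 1 library.

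A UMI counts 1 transcript at its 3′ end and needs no division by gene length. *Smad7* stood far above the other 9 genes, at 428 to 556 CPM with a median of 523. It ranked number 228 of the 18833 genes by mean level and had a UMI in 98.4% of all cells, with 5 or more UMIs in 7592 cells and up to 24 in 1 cell.

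*Ski* followed at 42.6 to 57.0 CPM and was seen in 40.5% of cells. *Smad4* lay at 15.9 to 30.7, *Skil* at 16.6 to 29.1, *Tgfbr1* at 11.7 to 17.6 and *Smad2* at 6.45 to 18.0 CPM, each seen in between 13.5% and 21.1% of cells. In this middle group neighbours in the order were not separated: *Smad4* was above *Skil* in 4 of 8 libraries, *Skil* above *Tgfbr1* in 7, and *Tgfbr1* above *Smad2* in 5.

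The remaining 4 genes were rare. *Smad3* was at 2.04 to 5.19 CPM and had a UMI in 3.73% of cells, *Tgfb1* was at 0.882 to 1.93 and in 1.59%, and *Tgfbr2* was at 0.407 to 1.41 and in 0.548%. *Tgif1* gave 7 UMIs in all, each in a different cell, and none in 5 libraries, where a count of 0 allows a share of cells with a UMI of up to 0.108% to 0.332%. These limits cover counting error only. In each of the 8 libraries *Smad2* exceeded *Smad3*, *Smad3* exceeded *Tgfb1*, *Tgfb1* exceeded *Tgfbr2* and *Tgfbr2* exceeded *Tgif1*.

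**Figure D1:**
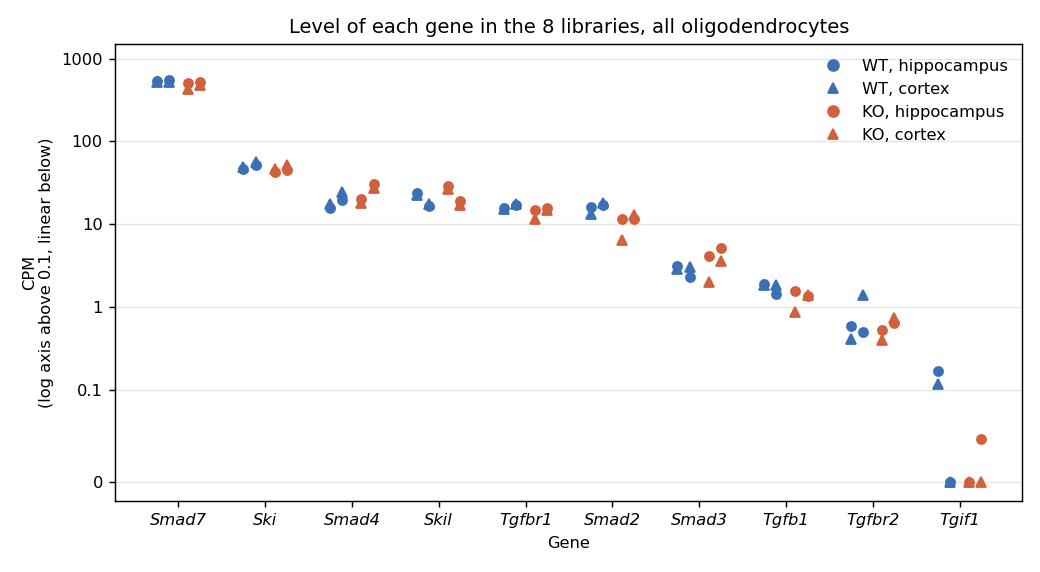
CPM of each of the 10 genes in the 8 libraries, on an axis that is logarithmic above 0.1 and linear below, with WT in blue, KO in orange, hippocampus as circles and cortex as triangles. *Smad7* lies between 428 and 556 in all libraries, above *Ski* at 42.6 to 57.0 and the other genes.

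The receptor pair was seldom caught in 1 cell. *Tgfbr1* was detected in 1925 cells and *Tgfbr2* in 69, and both in 15 cells, 0.119% of all. The joint count cannot exceed the 69 cells with *Tgfbr2*, and the number expected from the separate shares was not computed. A cell with UMIs of *Tgfbr1*, of *Smad4* and of *Smad2* or *Smad3* occurred 86 times. On average 2.15 of the 10 genes were detected per cell, and 77 cells held none. A missing UMI at this depth does not show that a transcript is absent from a cell.

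KO was compared with WT over all oligodendrocytes, on the mean over cells of the deposited log2 normalized value, averaged over both tissues of a mouse, with 2 mice per genotype. A gene was tested if its share of cells with a UMI, averaged over both genotypes, was at least 5%. Of the 10 genes 6 passed this filter, and *Tgfb1*, *Tgfbr2*, *Smad3* and *Tgif1* did not. None of the 6 was called by limma with Benjamini-Hochberg adjustment over all 9257 genes tested, a background of 0% called (0 genes, with 209 at an unadjusted p under 0.05). With edgeR's quasi-likelihood test on UMI sums none of the 6 was called either, beside 8 of 9257 genes, 0.0864%. With mice of the same age as a block limma called 0 genes, with 970 at an unadjusted p under 0.05.

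The inhibitor *Smad7* had its lowest values in KO libraries. In WT it stood at 531 and 528 CPM in hippocampus and cortex of mouse 1 and at 556 and 519 in those of mouse 4. In KO it stood at 503 and 428 in mouse 3 and at 529 and 483 in mouse 6. On the UMI scale the hippocampus library of KO mouse 6 overlapped the WT libraries and the other 3 KO libraries lay below all of them.

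The mean per mouse was 533 ± 5.70 CPM in WT and 486 ± 28.7 in KO (SD, n = 2 mice each), a ratio of 0.911. On the mean log2 scale the KO libraries lay between 2.02 and 2.19 and the WT libraries between 2.22 and 2.31, without overlap. The difference of KO minus WT was -0.12 (SE 0.032, 95% interval -0.22 to -0.020, unadjusted p = 0.030 and adjusted p = 1.00 by limma), rank 140 of 9257 by p. By edgeR the log2 fold change was -0.12 with an unadjusted p of 0.38 and an adjusted p of 1.00.

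*Smad2*, which encodes a receptor-regulated SMAD, was lower in KO by a larger proportion. Its level in mouse 1 was 16.4 CPM in hippocampus and 13.5 in cortex, and in WT mouse 4 it was 17.4 and 18.0. In KO mouse 3 it was 11.6 and 6.45, and in KO mouse 6 it was 11.7 and 13.2. All 4 KO libraries lay below all 4 WT libraries, the highest KO and the lowest WT library by a narrow margin.

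The mean per mouse was 16.3 ± 1.93 CPM in WT and 10.7 ± 2.42 in KO (SD, n = 2 mice each), a ratio of 0.656. On the mean log2 scale the difference was -0.045 (SE 0.018, 95% interval -0.100 to 0.010, unadjusted p = 0.083 and adjusted p = 1.00 by limma). This SE comes from the unpaired fit, so it includes the spread between the pairs of 1 age. In the pairs, WT mouse 1 was at 0.120 and KO mouse 3 at 0.0742, and WT mouse 4 at 0.146 and KO mouse 6 at 0.102. EdgeR gave a log2 fold change of -0.59 (unadjusted p = 0.0094, adjusted p = 1.00). The share of cells with a *Smad2* UMI was 16.7% ± 2.91 in WT and 11.6% ± 2.97 in KO (SD, n = 2 mice each), with p = 0.333 in a two-sided exact permutation test, the smallest that 2 mice against 2 allow, and adjusted p = 0.741 over the 10 genes.

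Over the 6 tested genes the counts on the mean log2 scale can be set beside those of all genes. Both KO mice were below both WT mice for 2 of the 6, *Smad2* and *Smad7*, against 8% of all 9257 genes, and above them for none, against 11.9%. All 4 KO libraries were below all 4 WT libraries for the same 2 genes, against 1.35%, and above them for none, against 2.78%. Within batches KO was below WT in all 4 for *Tgfbr1*, *Smad2*, *Smad7* and *Ski*, against 9.9% of all genes, and above WT in all 4 for *Smad4* and *Skil*, against 13.4%. In CPM *Skil* was above WT in 3 batches, with a ratio of 0.960 in the cortex of mice 6 and 4. The 4 batches share mice in pairs and are not 4 independent comparisons.

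**Figure D2:**
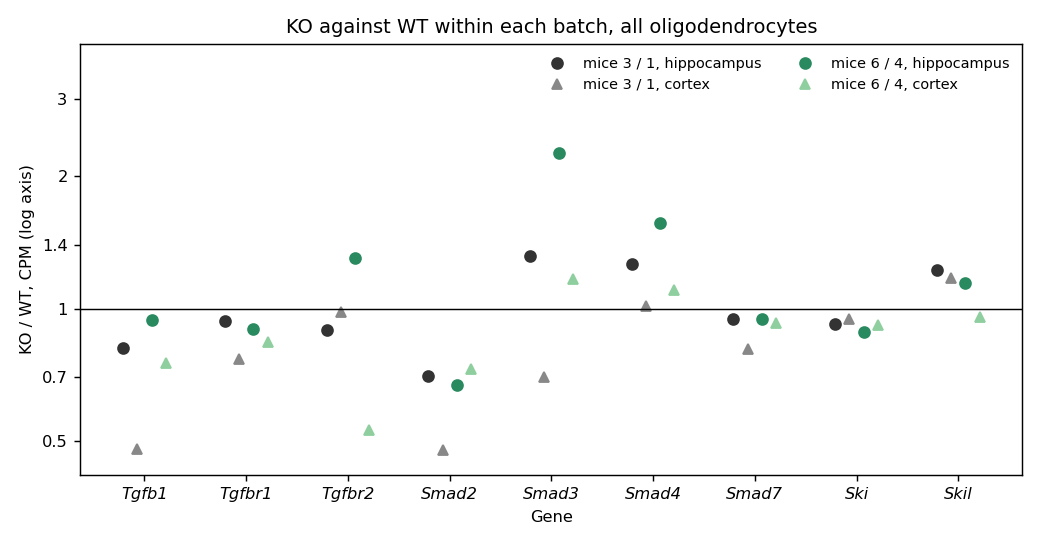
KO level divided by WT level, in CPM on a log axis, for 9 genes within each of the 4 batches, with hippocampus as circles, cortex as triangles and mice 3 and 1 in greys, mice 6 and 4 in greens. *Smad2* lies between 0.478 and 0.730 and *Smad7* between 0.810 and 0.951, while *Smad4* lies between 1.02 and 1.57. *Tgif1* is left out because most of its libraries are at 0.

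*Tgfbr1*, the type I receptor gene, was at 15.2 to 17.6 CPM in the WT libraries and at 11.7 to 15.6 in the KO libraries, with an overlap of the groups. The mean was 16.4 ± 1.44 in WT and 14.2 ± 1.41 in KO (SD, n = 2 mice each), and the mean log2 difference was -0.017 (SE 0.014, 95% interval -0.060 to 0.026), or -0.0074 without WT mouse 4. *Ski* was at 46.1 to 57.0 in WT and 42.6 to 52.5 in KO libraries, also overlapping, with a mean log2 difference of -0.028 (SE 0.025, 95% interval -0.10 to 0.048). It was -0.0025 without WT mouse 4 and -0.053 without WT mouse 1.

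*Smad4* and *Skil* were on the other side of 0. *Smad4*, the common SMAD, was at 15.9 to 24.8 CPM in WT and at 18.1 to 30.7 in KO libraries. Its mean log2 difference was 0.036 (SE 0.036, 95% interval -0.073 to 0.14), and with KO mouse 6 left out it was -0.00041. *Skil* was at 16.6 to 23.7 in WT and 17.1 to 29.1 in KO libraries, with a difference of 0.020 (SE 0.036, 95% interval -0.091 to 0.13). The difference of *Skil* became -0.018 without KO mouse 3 and -0.0032 without WT mouse 4. Both genes differed more between mice of the same genotype than between genotypes, and these differences lay between the pairs of 1 age, which share batches. *Skil* averaged 23.2 and 27.9 CPM in mice 1 and 3 against 17.2 and 18.1 in mice 4 and 6. *Smad4* averaged 16.9 and 19.2 against 22.2 and 29.1 in the same order. Leaving out 1 mouse also breaks its pair.

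The ligand gene *Tgfb1* gave 45, 31, 20 and 24 UMIs in the WT libraries of hippocampus and cortex of mouse 1 and of mouse 4, and 44, 13, 29 and 17 in those of KO mice 3 and 6. The levels were 1.77 ± 0.161 CPM in WT and 1.31 ± 0.109 in KO (SD, n = 2 mice each). KO was below WT in all 4 batches, with ratios from 0.481 to 0.945. With edgeR run without the filter the log2 fold change was -0.41 (unadjusted p = 0.19, adjusted p = 1.00 over 18833 genes).

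Microglial transcripts moved with genotype in the same direction as *Tgfb1*. In the pooled WT libraries the level of *Tgfb1* was 1.95 CPM in cells with a UMI of the microglial list and 1.56 in cells without. In KO libraries it was 1.91 in cells with such a UMI and 1.23 in cells without. The KO libraries did not go one way: in the hippocampus of mouse 3 the level was 1.07 in cells with and 1.68 in cells without, from 5 and 39 UMIs, and in the hippocampus and cortex of mouse 6 it was 2.98 and 3.08 in cells with, from 10 and 7 UMIs, and 1.05 and 1.03 in cells without. *Tgfb1* was present in cells of KO mice without any UMI of the 11 microglial genes, where it gave 76 UMIs in 5500 cells. All deposited cells were oligodendrocytes, so no cell type that lacks *Tgfb1* was at hand to set its background.

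*Tgfbr2*, the type II receptor gene, gave 7 to 18 UMIs per WT library and 6 to 15 per KO library, at 0.732 ± 0.317 and 0.587 ± 0.162 CPM (SD, n = 2 mice each). The cortex library of WT mouse 4 was highest at 1.41. That library, of batch 6, also had the highest share of cells with a microglial UMI, 77.0%. The part of that share or of the batch in the *Tgfbr2* level was not tested. Summed endothelial markers were at 4.08 to 23.1 CPM in WT and 20.9 to 25.0 in KO libraries. *Smad3* was at 2.85 ± 0.243 in WT and 3.73 ± 0.921 CPM in KO (SD, n = 2 mice each), with KO above WT in 3 of 4 batches and a ratio of 0.702 in the fourth, the cortex of mice 1 and 3. For *Tgif1* 6 of the 7 UMIs came from WT mouse 1 and 1 from KO mouse 6.

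The genes were also compared in cells without any microglial UMI. *Smad7* then differed by -0.13 (SE 0.031) and *Smad2* by -0.036 (SE 0.017), with an adjusted p of 1.00 each by limma. *Tgfbr1* differed by -0.0093 and *Skil* by 0.0087 in these cells. Without Oligo1 cells none of the 6 genes was called.

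*Smad2*, *Smad4* and *Smad7* lie on chromosome 18 of the GRCm38 build, as does *Csf1r* (61100598 to 61132149, plus strand). *Smad4* spans 73639009 to 73703780 on the minus strand, *Smad7* 75367529 to 75395935 and *Smad2* 76241580 to 76310963, both on the plus strand, at 12.5, 14.2 and 15.1 Mb from *Csf1r*. Of the 3, *Smad7* and *Smad2* had lower and *Smad4* had higher KO values in every batch. A part of that position in the values was not tested. The other genes lie on other chromosomes: *Tgfbr1* and *Ski* on 4, *Skil* on 3, *Tgfb1* on 7, *Smad3* and *Tgfbr2* on 9 and *Tgif1* on 17.

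KO was next compared with WT inside the clusters that both genotypes fill, Oligo2, Oligo3 and Oligo4. None of the 6 genes tested in Oligo2 and Oligo3, nor of the 7 in Oligo4, was called by limma, against 0% of 9292, 9135 and 9381 genes. At an unadjusted p under 0.05 limma gave 139, 103 and 282 genes. EdgeR called 4, 3 and 25 genes, 0.043%, 0.0328% and 0.266%, none of them one of the 10.

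*Smad7* had lower mean values in KO in each of these clusters. The mean log2 difference was -0.12 in Oligo2 (SE 0.064, 95% interval -0.31 to 0.069), -0.11 in Oligo3 (SE 0.014, -0.15 to -0.065) and -0.090 in Oligo4 (SE 0.023, -0.15 to -0.025). In Oligo3, the largest cluster, the unadjusted p of 0.0030 ranked 6 of 9135 genes, with an adjusted p of 1.00 by limma. The hippocampus library of KO mouse 3 overlapped WT there, at 2.24 against 2.24 to 2.31 in the WT libraries, and the other 3 KO libraries were at 2.07 to 2.19. In Oligo4 the same library, at 2.32, was the third highest of 8.

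*Smad2* in Oligo3 was at 0.121 to 0.157 in the WT and at 0.0616 to 0.102 in the KO libraries on the mean log2 scale. The groups did not overlap, which held for 1 of the 6 tested genes and for 0.778% of all genes, and no tested gene of the 6 had all KO libraries above WT, against 1.17%. The difference of *Smad2* was -0.027 in Oligo2 (SE 0.021), -0.056 in Oligo3 (SE 0.017, unadjusted p = 0.041) and -0.083 in Oligo4 (SE 0.036), with adjusted p of 1.00 in each by limma. *Ski* differed by -0.075 in Oligo4 (SE 0.022, unadjusted p = 0.027) and by -0.013 in Oligo3 (SE 0.025), where it was 0.012 without WT mouse 4. Without KO mouse 3 the Oligo2 difference was -0.044 for *Smad7* and -0.0061 for *Smad2*, and the Oligo4 difference of *Smad2* was -0.047. Both KO mice were below both WT mice in all 3 clusters for *Smad2* and *Smad7*, 2 of 6 genes against 1.25% of all genes.

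**Figure D3:**
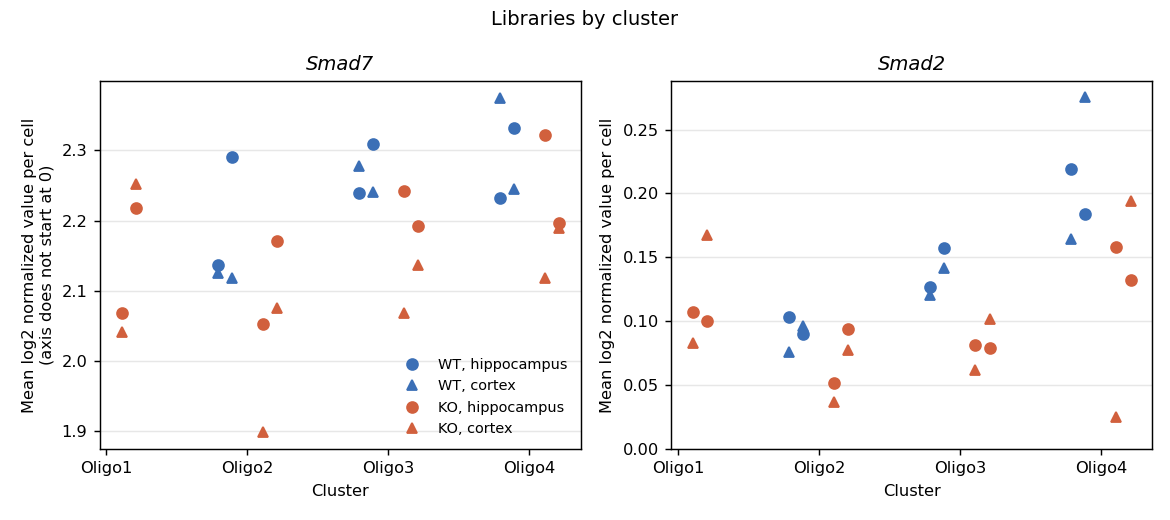
Mean log2 normalized value per cell of *Smad7* and *Smad2* in each library and cluster with at least 10 cells, with WT in blue, KO in orange, hippocampus as circles and cortex as triangles, and a *Smad7* axis that does not start at 0. In Oligo3 *Smad2* lies at 0.121 to 0.157 in WT and 0.0616 to 0.102 in KO. Oligo1 holds KO libraries only.

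The clusters differed in the level of several genes within 1 library. Because the clusters were cut from these same expression values, their differences are a description. Oligo2 was below Oligo3 in all 8 libraries for *Tgfbr1*, *Smad7*, *Ski* and *Skil*, 4 of the 6 tested genes against 10.1% of all genes, and for *Smad3*. The median level of *Smad3* was 0.741 CPM in Oligo2, 3.25 in Oligo3, 4.45 in Oligo4 and 7.15 in Oligo1. For *Skil* it was 14.9, 21.9, 24.1 and 29.6 in the same order, and for *Smad2* it was 9.74, 13.5, 20.7 and 13.2. The medians of *Ski* lay between 45.6 and 51.1 and those of *Smad4* between 19.2 and 23.2.

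Oligo1 was compared with the other KO cells of the same mice, with 1 mean for each part of a KO mouse. Since Oligo1 was defined on expression, the p-values do not test the cluster independently. They set a difference against the spread between these mice, and without a block the fit took both parts of a mouse as unpaired. None of the 7 genes that passed the filter was called by limma, against 2 of 9259 genes, 0.0216%. Nor was any called by edgeR, against 119 genes, 1.29%, or with the mouse as a block, against 1192 genes, 12.9%. Hippocampus supplied 859 and 448 of the Oligo1 cells in KO mice 3 and 6, and cortex 147 and 98, so the tissues are mixed differently in both parts.

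*Smad3*, the rarer gene of the receptor-regulated SMAD pair, had higher values in Oligo1. It passed the filter only through Oligo1, where 7.26% of the cells of mouse 3 and 9.89% of those of mouse 6 held a UMI, against 2.24% and 4.01% of the other cells, so the filter itself took it up for its high values there. Its level in Oligo1 was 8.31 CPM in the hippocampus and 2.44 in the cortex of KO mouse 3, from 74 and 5 UMIs, and 10.1 and 5.99 in KO mouse 6, from 51 and 8 UMIs. In the other cells of the same libraries it was 2.16 and 1.97, and 3.67 and 3.28. Oligo1 was higher in all 4 libraries, by 3.84 and 2.76 times in hippocampus and by 1.24 and 1.83 times in cortex.

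Since the clusters and the filter both drew on these values, the intervals and p-values of *Smad3* are a description and no independent test. The mean log2 difference of *Smad3* was 0.042 (SE 0.014, 95% interval 0.0014 to 0.083, unadjusted p = 0.046 and adjusted p = 0.52 by limma). With the mouse as a block the adjusted p was 0.074 by limma. EdgeR gave a log2 fold change of 1.49 with adjusted p = 0.094, and 1.53 with adjusted p = 0.00042 when the mouse was a block, where 19.2% of all genes were called. Without the filter the adjusted p was 0.46 by limma and 0.011 by edgeR, with 1.86% of 18543 genes called by edgeR. Both edgeR alternatives were chosen after the data were seen. The expected share of cells with a *Smad3* UMI after thinning to 5000 UMIs per cell in the hippocampus was 4.01% in Oligo1 against 0.984% in the other cells for mouse 3, and 4.86% against 1.76% for mouse 6. In cortex it was 1.22% against 1.02% and 2.78% against 1.64%.

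*Tgfbr1* was higher in Oligo1 in 3 of 4 KO libraries. It was at 18.0 and 17.1 CPM in Oligo1 of hippocampus and cortex of mouse 3 against 13.2 and 10.8 in the other cells, and at 18.9 in the hippocampus of mouse 6 against 14.6. In the cortex of mouse 6 the ratio of Oligo1 to the other cells was 0.790. The mean log2 difference was 0.030 (SE 0.013, 95% interval -0.0097 to 0.069, adjusted p = 0.73 by limma). *Smad2* was higher in all 4 libraries, by 1.16 to 1.76 times, with a difference of 0.023 (SE 0.014, 95% interval -0.020 to 0.066).

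For the other 4 tested genes the difference was smaller than its SE. The difference was -0.026 for *Smad4* (SE 0.038), -0.013 for *Smad7* (SE 0.063), 0.0018 for *Ski* (SE 0.024) and 0.027 for *Skil* (SE 0.050), each with an adjusted p of 1.00 by limma. *Skil* was 1.21, 1.66 and 1.64 times higher in 3 libraries and 0.991 times the level of the other cells in the hippocampus of mouse 6. *Tgfb1* gave 19 UMIs in all Oligo1 cells of both genotypes, *Tgfbr2* 11 and *Tgif1* 1.

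**Figure D4:**
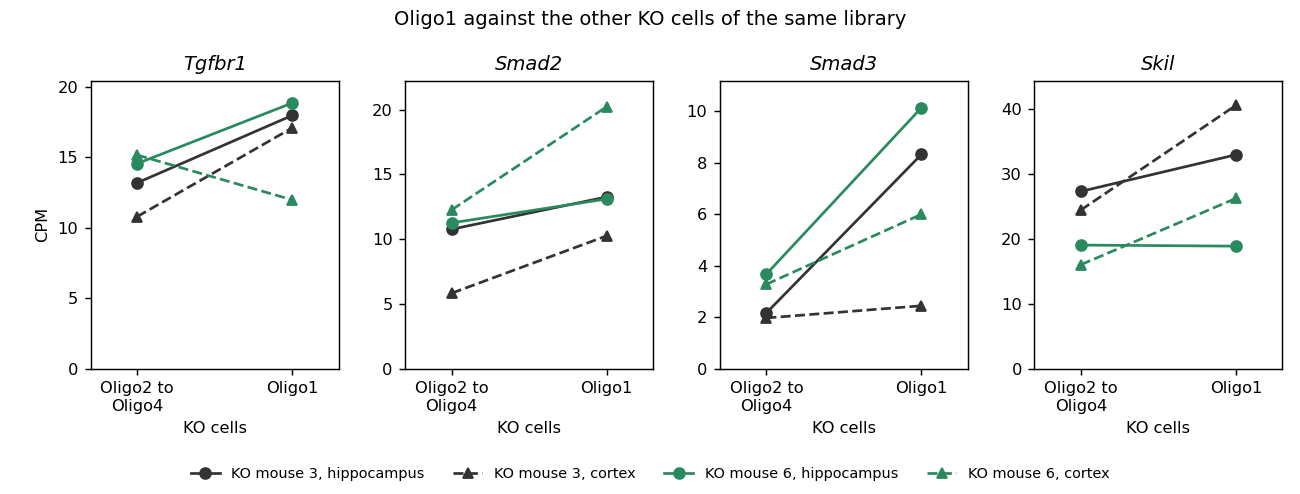
CPM of *Tgfbr1*, *Smad2*, *Smad3* and *Skil* in Oligo1 and in the other cells of the same KO library, with 1 line per library, grey for mouse 3, green for mouse 6, solid for hippocampus and dashed for cortex. All 4 lines go up for *Smad2* and *Smad3*, and *Smad3* reaches 8.31 and 10.1 in hippocampal Oligo1 cells against 2.16 and 3.67.

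The further genes of the pathway were described from 5 lists of 48 genes. Over all oligodendrocytes 25 of them were tested and none was called between KO and WT by limma or by edgeR with the filter. In Oligo4 edgeR called 1 of 29, *Junb*, with a log2 fold change of 2.60 (adjusted p = 0.0075), beside 0.266% of all genes. EdgeR without the filter called *Junb* over all oligodendrocytes, beside 0.632% of all genes and none of the 10. Of the 8 tested target genes 7 had higher values in KO, with a median difference of 0.021, where 53.9% of all genes were higher and the median was 0.0013. The highest was *Ldlrad4*, which encodes a membrane inhibitor of SMAD signalling, at 93.8 to 108 CPM in KO and 65.5 to 81.5 in WT libraries. Its mean log2 difference was 0.17 (SE 0.038, adjusted p = 1.00 by limma), and it lies on chromosome 18, 6.80 Mb from *Csf1r*. The lowest of the list was *Tgfbi* at -0.0049.

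Of the 13 tested partners and ubiquitin ligases 5 were higher in KO. The highest was *Fkbp1a*, whose product FKBP12 binds the type I receptor, at 0.13 (SE 0.026, adjusted p = 1.00), and the lowest *Ncor1*, a nuclear receptor corepressor, at -0.11 (SE 0.12). Among the ligand, storage and activation genes *Itgav* differed by 0.012 and *Itgb8*, an integrin subunit that takes part in TGF-beta activation, by -0.030. *Smad1* and *Smad5* of the bone morphogenetic protein branch differed by 0.0081 and -0.017. None of the receptor and co-receptor list passed the filter.

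In Oligo1 none of the 27 tested list genes was called by limma without a block. With the mouse as a block 6 were called: *Fkbp1a*, *Nedd4l*, *Ldlrad4*, *Tsc22d1* and *Id3* were higher and *Itgb8* lower, beside 12.9% of all genes. *Itgb8* was at 88.1 to 93.3 CPM in Oligo1 and at 106 to 113 in the other KO cells, with a difference of -0.13 (SE 0.010, adjusted p = 0.0086 by limma with the block and 0.17 without). *Fkbp1a* was at 680 to 738 against 583 to 612, with a difference of 0.19 (SE 0.012, adjusted p = 0.0065 with the block and 0.18 without). Both genes were named for passing this blocked test, so their separate ranges are no further result.

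*Ldlrad4* was at 121 to 137 CPM in Oligo1 and 87.9 to 96.5 in the other cells. *Id3*, a target of several TGF-beta family ligands, was at 19.0 to 36.5 against 10.2 to 11.8, and *Tsc22d1*, first cloned as a TGF-beta-stimulated gene, at 42.7 to 58.4 against 24.3 to 39.2. These 3 genes were named for passing the blocked test of the same comparison, so their separate ranges are no further result. The share of all genes with separate ranges was not computed. *Nedd4l*, a ubiquitin ligase for activated SMAD proteins, was higher in 3 of 4 libraries. EdgeR without a block called *Id3* and *Junb*, beside 1.29% of all genes. On the scale of log2 mean values *Id3* alone of the list genes was called, beside 0.508% of all genes, and with mouse and tissue as a block 7 were called, beside 14.2%. *Junb*, also an immediate early gene, was at 18.7 to 57.8 against 3.15 to 7.12 CPM. Of the 9 tested target genes 8 were higher, with a median of 0.057 where 52.0% of all genes were higher and the median was 0.0010, and the lowest was *Id2* at -0.011.

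Tissue was compared over the 8 libraries, and the interaction of genotype with tissue over the difference of both tissues in each mouse. None of the 6 genes was called by limma in either, against 0% of 9257 genes in both, with 490 and 574 genes at an unadjusted p under 0.05. For tissue edgeR called 0 genes as well. The hippocampus minus cortex difference of *Ski* was -0.045 on the mean log2 scale (SE 0.018, unadjusted p = 0.048, adjusted p = 0.93 by limma), with lower values in hippocampus in 4 of 4 mice. This fit took the libraries as unpaired. When both tissues of a mouse were paired by a block, the SE of *Ski* was 0.0087 and its adjusted p 0.18 by limma, with 0 genes called and 1450 at an unadjusted p under 0.05. The unpaired tissue difference of *Smad7* was 0.067 (SE 0.033, 95% interval -0.012 to 0.15). The interaction of *Smad4* was 0.036 (SE 0.013, unadjusted p = 0.050, adjusted p = 0.80 by limma), with KO minus WT at 0.038 and 0.070 in hippocampus and 0.0090 and 0.027 in cortex.

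Likeness was read over the 28 combinations of library and cluster with at least 10 cells, as Pearson's r of levels on a log2 scale, with 1 added, against 9744 genes. These points share libraries, depth and mice, and the values are a description. Among the closest to *Tgfbr1* were *Fgfr1op* (r = 0.721) and *Rnf8* (0.714), and among the closest to *Smad7* were *Zfand5* (0.850) and *Man1a2* (0.804). Among the 10 genes *Smad7* was closest to *Smad2* (r = 0.674) and to *Smad3* (0.528), and *Tgfbr1* to *Ski* (0.351).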

How the data were processed

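Single cells were profiled with 10x Genomics 3′ chemistry (v3.1), and per the labels the reads were processed with Cell Ranger 5.0.0 on mm10. Myelin debris, doublets and non-viable cells had been gated out by sorting. The authors deposited log2 values of counts divided by a size factor per cell, plus 1, for oligodendrocytes, with library, batch, cluster, size factor and total count per cell. UMI counts were recovered from the deposited log2 values and size factors: all 42420937 values above 0 were whole within 0.001, and 99.9988% of the deposited UMIs were regained. Cells had at least 5039 UMIs.

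Genes were tested if their share of cells with a UMI, averaged over the groups compared, was at least 5%. Testing was by limma 3.58.1 on mean log2 values, two-sided, with Benjamini-Hochberg adjustment over all tested genes at 0.05. EdgeR 4.0.16 with TMM factors on UMI sums was the alternative (R 4.3.3). The tests were checked on simulated data, where limma recovered 91 and 97 of 100 genes changed by 0.5 and 1 on the log2 scale. There were 13 false calls among 9257 genes. Over all oligodendrocytes the KO minus WT differences of the 6 tested genes were smaller, from -0.12 (*Smad7*) to 0.036 (*Smad4*). Apart from *Smad7*, their WT means were at most 0.40 (*Ski*), too low for a fall of 0.5. No recovery is given for changes that small, so the check does not show how often limma would call them. Per its methods the study set Oligo1 against the other cells with FindMarkers of Seurat; here the mouse was the replicate. Hippocampus and cortex of a mouse, and Oligo1 and other cells of a KO mouse, came from the same animal, with correlations of their deviations of 0.843 in WT, 0.853 in KO and 0.903. Mice of 1 labelled age share batches, with a correlation of 0.742.

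Named were the 10 genes, *Csf1r*, genes of further TGF-beta lists past the threshold or highest or lowest in a list, and the 3 genes most like *Tgfbr1* and *Smad7*, of which some are not reported here. *Tsc22d1*, *Id3*, *Ldlrad4*, *Nedd4l*, *Fkbp1a* and *Itgb8* were named for passing with the block. Genes and lists were chosen with earlier results of these data known. Gene positions are from GENCODE vM21 (GRCm38). P-values over 2 mice per genotype set a difference against the spread between these mice only.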

Additional observations from a re-analysis of the deposited data

Results flagged for a closer look

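In 85 groups of 4 libraries of 1 genotype, over all cells or in 1 cluster, 10 held a library whose mean log2 value stood apart by Dixon's 95% critical value for 4 samples. Chance flags about 1 in 20 groups. For *Smad7* in Oligo2 the hippocampus of WT mouse 4 was at 2.29 and the next WT library at 2.14. For *Smad3* over all cells the same library was low at 0.0193, from 32 UMIs, against 0.0255 to 0.0257, and in Oligo2 the hippocampus of KO mouse 6 was at 0.0161 from 7 UMIs. For *Tgfbr2* the cortex of WT mouse 4 was at 0.0099 over all cells, from 18 UMIs, and the hippocampus of KO mouse 3 at 0.0056 in Oligo2, from 4 UMIs. The cortex of WT mouse 1 held 38 Oligo4 cells, in which *Tgfbr1* was low at 0.0616, from 4 UMIs, and *Skil* high at 0.384, from 25 UMIs. *Tgif1* was flagged 3 times on 1 UMI each, at 0.00046 over all cells and 0.0020 in Oligo1 of the hippocampus of KO mouse 6, and at 0.0022 in Oligo2 of the cortex of WT mouse 1.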

How the results depend on the processing

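The count of the 10 genes called was 0 in 65 of 67 alternatives and 1 (*Smad3*, higher in Oligo1) in 2, edgeR with no filter and edgeR with the mouse as a replicate block, both chosen after the data were seen, in which 1.86% and 19.2% of all genes were called. Leaving out each mouse in turn gave 0 to 0 in each comparison, and a single KO mouse gave no test for Oligo1. Of 177 alternative values of single genes over all oligodendrocytes and in Oligo1, 163 kept direction and call. The Oligo1 values with 1 KO mouse left out had no test and were counted by direction alone. Between genotypes *Smad4* turned without KO mouse 6 (-0.00041), and *Skil* turned without KO mouse 3 (-0.018) and without WT mouse 4 (-0.0032). *Smad4* was 0.072 without KO mouse 3, the other end of its range with 1 mouse left out. In Oligo1 *Smad7* turned by edgeR (0.0012), without KO mouse 3 (0.058), with mouse and tissue as a block (0.0094) and in cortex (0.075). *Ski* turned in Oligo1 on the scale of log2 mean values (-0.014), by edgeR (-0.0082) and without KO mouse 6 (-0.013). It also turned by edgeR with no filter (-0.021) and by edgeR with the block (-0.012). With the other KO mouse left out both genes kept their direction, *Smad7* at -0.084 without KO mouse 6 and *Ski* at 0.016 without KO mouse 3. The cause of the turns was not tested. The difference of *Smad7* between genotypes ranged from -0.15 to -0.083 and that of *Smad2* from -0.059 to -0.031 over the alternatives on the mean log2 scale, and the lowest adjusted p was 0.37 and 0.36.

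List genes called between genotypes over all oligodendrocytes numbered 0, and 1 (*Junb*) by edgeR with no filter, beside 0.632% of all genes. In Oligo1 they numbered 0, and 1 on the scale of log2 mean values (beside 0.508% of all genes), 2 by edgeR (1.29%), 6 with the mouse (12.9%) and 7 with mouse and tissue (14.2%) as a replicate block, 7 by edgeR with no filter (1.86%) and 13 by edgeR with the block (19.2%). Over all genes the mouse block raised the calls from 2 to 1192. Blocking KO and WT by age changed no call, with 0 of the 10 genes called. *Tgif1* and *Tgfbr2*, seen in 7 and 69 cells, did not pass the filter. A limit was computed for *Tgif1* only in the libraries where it was at 0, and none for *Tgfbr2*.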
